A study of Capra hircus with 13 samples.

Results

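The data described here concern 7 goat genes, *BTG4*, *TOB1*, *TOB2*, *ZFP36L1*, *ZFP36L2*, *PUM2* and *CELF1*, whose proteins link mRNAs to deadenylases or bind mRNA 3′ UTRs. They were chosen by gene symbol, and all 7 were found among the 18138 genes listed in all 13 RNA-seq libraries. The series holds 3 libraries of untreated MII oocytes, which are mature oocytes arrested before fertilization, 3 of untreated 4-cell embryos and 3 of untreated 8-cell embryos, none of them injected. A further 4 libraries come from injected embryos at 8 cells, 2 with a negative control (NC) siRNA, which the labels title WT, and 2 with *YTHDF2* siRNA. The injected embryos came from zygotes that received siRNA in the cytoplasm 8 h after in vitro fertilization, and each library pooled embryos. The *YTHDF2* siRNA was at 20 µM, and the concentration of the NC siRNA is not given in the sources used here. The untreated libraries were taken by the authors from earlier studies, and neither the study nor the number of embryos behind each library is given in the sources used here. A difference between those studies and a difference between stages cannot be told apart. The labels number replicates without saying whether they came from separate cultures or donors, so p-values measure only the spread between these libraries, which may be technical.

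An mRNA is cleared from the oocyte and early embryo in steps, and removal of its poly(A) tail by the CCR4-NOT complex is usually the first of them. BTG4, TOB1 and TOB2 carry a shared amino-terminal domain that binds the catalytic deadenylases CNOT7 and CNOT8, and *BTG4* is known from the mouse as a gene needed for maternal mRNA clearance. ZFP36L1 and ZFP36L2 bind AU-rich elements in 3′ UTRs through zinc fingers, PUM2 binds Pumilio elements and CELF1 binds GU-rich elements, and all 4 can recruit deadenylation to their targets. YTHDF2, a reader of the mRNA mark m6A, also recruits CCR4-NOT. Smart-seq2, the method used for these libraries, primes cDNA on poly(A) tails, so less mRNA and shorter tails cannot be told apart in these levels. In pooled or whole embryos, fewer cells of a kind and less RNA per cell cannot be told apart either.

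The antisense strands of the *YTHDF2* siRNAs define the knockdown group and are shown 5′ to 3′, with the seed, bases 2 to 8, in capitals. Their match to goat transcripts was not searched here.
s28148: uUGCUAGCaauaucagcccaa
s28147: uGGUCUAUaguauucaugcca
*YTHDF2* stood at 111.54 and 158.61 FPKM in the NC embryos and at 8.07 and 4.47 FPKM in the *YTHDF2* siRNA embryos, a log2 fold change of -4.25 ± 0.432 (SE), with an adjusted p of 0.000367 by limma. Both knockdown libraries were far below both controls.

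Values are the FPKM of the authors, which are fragments scaled by transcript length and by the mapped fragments of the library. The untreated libraries held 26853876 to 42495116 fragments, recovered from the steps of the values. For the injected libraries no depth could be recovered. Genes listed for all 3 stages held 64.85 to 66.31% of the fragments of the MII libraries and 94.69 to 96.99% of those of the embryos. Each fold change against MII includes the shift this gives: the median log2 fold change of all 9090 genes tested was 0.29 at the 4-cell and 0.37 in 8-cell embryos, and -0.15 and -0.07 once each library was scaled to its fragments on those genes. On that scale the share of decreases among the calls went from 26.6 to 66.7% in 4-cell embryos and from 29.1 to 59.9% in 8-cell embryos. The 8-cell library of replicate 1 stood apart, with a correlation of log2 values of 0.921 to 0.944 with the other two of its group, which correlated at 0.979. Oocyte markers were detected in all groups, with all 10 of the list at a mean of at least 1 FPKM in each group but the NC embryos, where 8 of 10 were. Of 11 cumulus and granulosa cell markers 9 were listed, with summed levels of 77.1 to 164 FPKM in the untreated libraries, *AMH* at 0 and *PTX3* at a mean of at most 0.803 FPKM there. In each untreated group 5 or 6 of the 9 had a mean of at least 1 FPKM, led by *DCN* with means of 49.1 to 82.4 FPKM, *HAS2* with 9.31 to 24.8 FPKM, *VCAN* with 11.8 to 15.4 FPKM, *TNFAIP6* with 3.74 to 14.6 FPKM and *LUM* with 1.76 to 12.3 FPKM. The 3 listed sperm markers summed to at most 0.99 FPKM in the untreated libraries, to 12.2 and 12.6 FPKM in the NC and to 3.51 and 25.1 FPKM in the *YTHDF2* siRNA embryos. In the injected embryos this was mostly *TNP2*, with means of 11.5 FPKM with NC and 13.5 FPKM with *YTHDF2* siRNA. *ODF1* and *AKAP4* had means of at most 0.795 FPKM there. The 4 listed embryonic genome activation markers summed to 10.4 to 14.2 FPKM in the MII oocytes, 50.1 to 117 FPKM in 4-cell embryos and 315 to 1090 FPKM in 8-cell embryos.

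*BTG4* was by far the most abundant of the 7 genes, and its level was higher in 4-cell embryos than in any MII or 8-cell library. The level was 4265, 3551 and 4717 FPKM in the MII oocytes, 8192, 7033 and 8843 FPKM in the 4-cell stage embryos and 3400.0, 5070.2 and 6039.7 FPKM in the 8-cell stage embryos. These values rest on 63684 to 175107 fragments a library. In each of the 9 untreated libraries *BTG4* held rank 5 of the 18138 genes by FPKM. The mean was 4177 ± 588 FPKM (SD, *n* = 3) in the MII oocytes, 8023 ± 917 in 4-cell embryos and 4837 ± 1335 in 8-cell embryos. From highest to lowest the order was 4-cell, 8-cell and MII, with the 8-cell and MII libraries overlapping.

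A gene was called increased or decreased by the rule of the study, which asks for more than 2-fold change with an unadjusted p under 0.05, here with limma on log2(FPKM + 1). Each adjusted p-value is a Benjamini-Hochberg value from limma that covers every gene tested. *BTG4* was not called at either stage. Against MII its log2 fold change was 0.94 ± 0.225 (SE) in 4-cell embryos (adjusted p = 0.0114), under the fold threshold, and it was past the rule without MII replicate 3 or 4-cell replicate 2 (1.04 for each). It fell to 0.39 (adjusted p = 0.25) with the shared genes as the total, to 0.64 (adjusted p = 0.234) with median-ratio rescaling and to 0 with quantile normalization. In 8-cell embryos the difference was 0.18 ± 0.225 (adjusted p = 0.559), and the sign turned with median-ratio rescaling (-0.20) and with the shared genes as the total (-0.36). From 4 to 8 cells the difference was -0.76 ± 0.225 (adjusted p = 0.0682), with each 8-cell library below each 4-cell library, and it was also 0 with quantile normalization.

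In the injected embryos *BTG4* stood at 1830.1 and 1077 FPKM with NC siRNA and at 2258 and 3335 FPKM with *YTHDF2* siRNA. Both knockdown libraries were above both controls, at ranks 27 and 17 against ranks 28 and 68. The log2 fold change was 0.97 ± 0.376 (SE), with an adjusted p of 0.112, under 2-fold and not called. Without NC replicate 1 or *YTHDF2* siRNA replicate 1 it reached 1.35 or 1.25 and was past the rule, and without NC replicate 2 or *YTHDF2* siRNA replicate 2 it was 0.58 (adjusted p = 0.524) or 0.68 (adjusted p = 0.528). The oocyte marker list, which had no part in the choice of the 7 genes, summed to 2080 and 3140 FPKM in the NC and to 4380 and 4710 FPKM in the knockdown embryos, and the cumulus and granulosa list to 40.8 and 51.3 against 89.3 and 92.6 FPKM. Of that list *FSHR* was at 0 in all 4 injected libraries, while the means went from 16.2 to 33.4 FPKM for *DCN*, from 10.4 to 21.9 for *HAS2*, from 5.63 to 13.8 for *TNFAIP6* and from 11.1 to 18.7 for *VCAN*. The part of both lists in the higher *BTG4* level was not tested.

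*TOB1* and *TOB2*, which encode the antiproliferative adaptors that also bind the poly(A)-binding protein, were low in the untreated material. *TOB1* stood at 2.21, 3.21 and 1.74 FPKM in the MII oocytes, at 2.35, 4.43 and 3.48 FPKM in 4-cell embryos and at 14.7, 4.40 and 4.21 FPKM in 8-cell embryos. Each 8-cell library was above each MII library, and 8-cell replicate 1 was more than 3 times as high as the other two. *TOB1* was increased in 8-cell embryos against MII by the rule of the study (log2 fold change 1.19 ± 0.425, SE), with an adjusted p of 0.0519. The call was lost without 8-cell replicate 1 (0.67), without MII replicate 3 (1.05, unadjusted p = 0.0647 by limma), and with each of 3 rescalings (0.80 to 0.94). The differences were 0.38 ± 0.425 in 4-cell embryos against MII (adjusted p = 0.54) and 0.81 ± 0.425 from 4 to 8 cells (adjusted p = 0.275). The latter was past the rule without 8-cell replicate 2 (1.06) or 3 (1.09) and dropped to 0.29 (adjusted p = 0.596) without 8-cell replicate 1.

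*TOB2* stood at 6.53, 4.22 and 3.80 FPKM in the MII oocytes, at 1.52, 3.59 and 1.27 FPKM in 4-cell embryos and at 9.15, 2.69 and 2.89 FPKM in 8-cell embryos. The 4-cell libraries were all below the MII libraries, and the 8-cell group spanned both. The log2 fold change in 4-cell embryos against MII was -0.95 ± 0.436 (SE, adjusted p = 0.129) and not called. It was past the rule with each of 3 rescalings (-1.43 to -1.11), with a pseudocount of 0.1 (-1.26), with limma voom on the fragments (-1.30) and without 4-cell replicate 2 (-1.26), and it was weakest without MII replicate 1 (-0.75, adjusted p = 0.335). In 8-cell embryos it was -0.12 ± 0.436 against MII (adjusted p = 0.846) and 0.82 ± 0.436 against 4-cell embryos (adjusted p = 0.28), the latter past the rule without 8-cell replicate 2 (1.08) or 4-cell replicate 2 (1.14) and at 0.35 (adjusted p = 0.596) without 8-cell replicate 1. The libraries with the fewest fragments held 152 of *TOB1*, in 4-cell replicate 1, and 160 of *TOB2*, in 4-cell replicate 3.

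In the NC embryos *TOB1* stood at 26.44 and 21.15 FPKM and *TOB2* at 48.23 and 29.41 FPKM, above each untreated library. With *YTHDF2* siRNA they stood at 17.23 and 11.15 FPKM and at 38.76 and 19.79 FPKM. The *TOB1* values lay below both controls and those of *TOB2* overlapped. Neither gene was called, with log2 fold changes of -0.73 ± 0.425 (SE, adjusted p = 0.263) for *TOB1* and -0.43 ± 0.453 (adjusted p = 0.546) for *TOB2*. The sign for *TOB2* turned without *YTHDF2* siRNA replicate 2 (0.039).

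**Figure D1:**
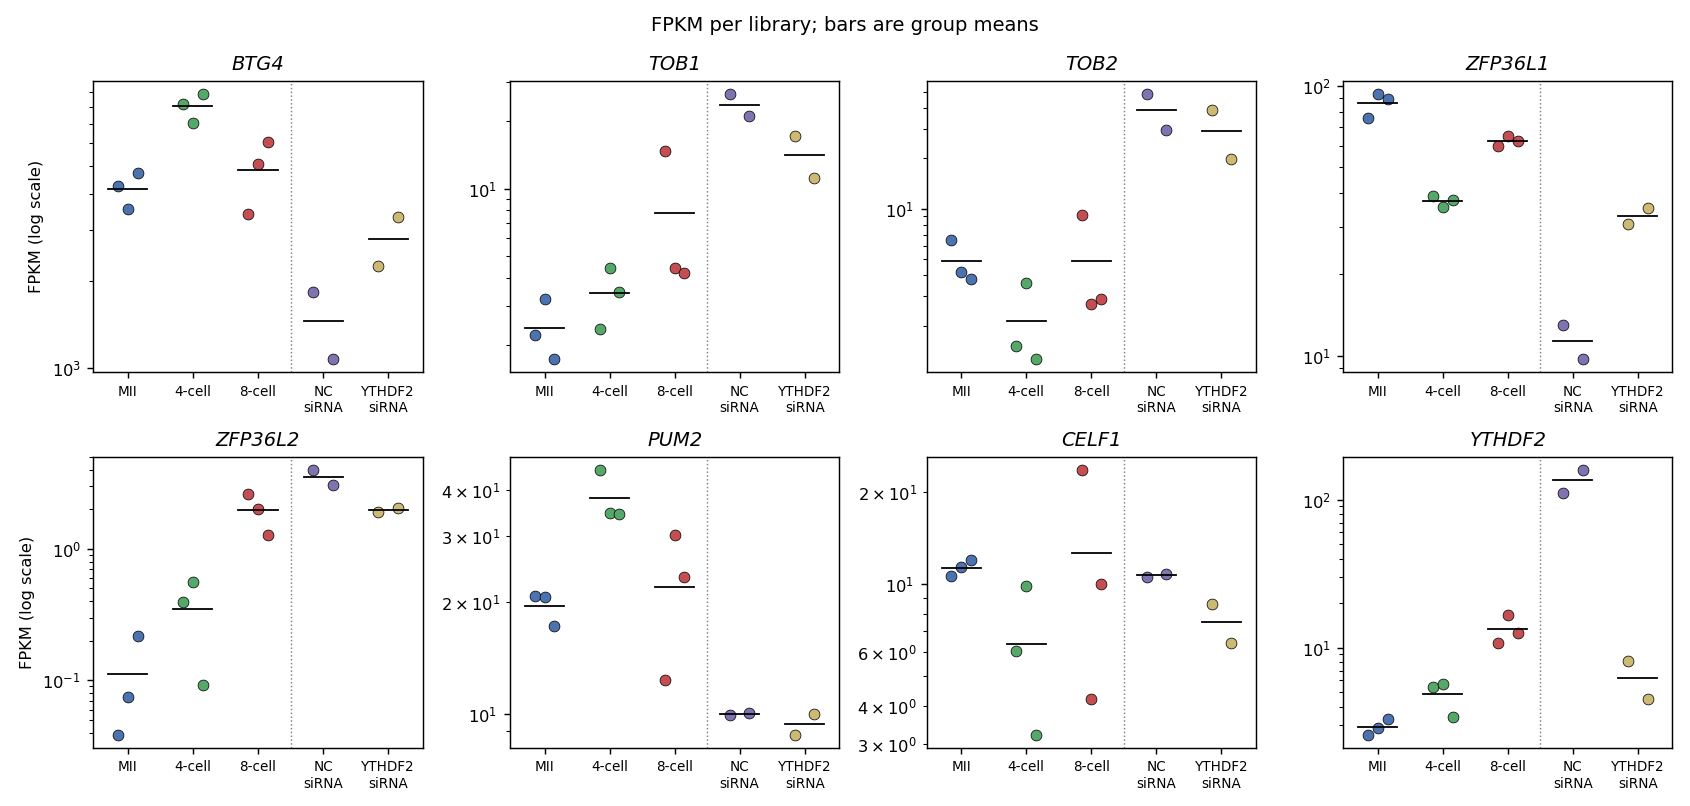
FPKM of the 7 genes and of *YTHDF2* in each library, on a log axis that differs between panels, with points for libraries and bars for group means. The dotted line parts the untreated from the injected libraries, whose tables were normalized separately. *ZFP36L1* shows 3 untreated groups that do not overlap, at 76.0 to 92.9 FPKM in MII, 35.7 to 39.0 at the 4-cell and 59.9 to 65.1 in 8-cell embryos, while 8-cell replicate 1 lies highest of its group for *TOB1*, *TOB2*, *CELF1* and *ZFP36L2* and lowest for *BTG4* and *PUM2*.

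*ZFP36L1* was the member with the clearest changes: it was lower in 4-cell embryos than in the MII oocytes, and higher in *YTHDF2* siRNA than in NC embryos. Its product belongs to the tristetraprolin family, which marks AU-rich mRNAs for decay. The level was 76.0, 92.9 and 89.4 FPKM in the MII oocytes, 39.0, 35.7 and 37.8 FPKM in 4-cell embryos and 59.9, 65.1 and 62.1 FPKM in 8-cell embryos, on 3066 to 12162 fragments. The order was MII, 8-cell and 4-cell, and no groups overlapped. In 4-cell embryos *ZFP36L1* was decreased against MII with a log2 fold change of -1.17 ± 0.146 (SE, adjusted p = 0.000547). It was called in all 16 alternatives, with log2 fold changes of -1.72 to -1.12 and adjusted p-values of 0.000147 to 0.00412. In 8-cell embryos it lay 0.72 ± 0.146 above the 4-cell stage on the log2 scale (adjusted p = 0.0209) and differed from MII by -0.45 ± 0.146 (adjusted p = 0.0355), both under 2-fold.

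In the injected embryos *ZFP36L1* stood at 13.02 and 9.74 FPKM with NC siRNA and at 30.81 and 35.27 FPKM with *YTHDF2* siRNA. Both knockdown values were more than 2-fold above both controls, and all 4 were below each untreated library. *ZFP36L1* was increased, with a log2 fold change of 1.47 ± 0.414 (SE) and an adjusted p of 0.0434. The call by the unadjusted p held in all 12 alternatives (1.28 to 1.66), while the adjusted p ranged from 0.00735 to 0.211. The higher level moved with the oocyte and the cumulus and granulosa marker sums given for *BTG4*, and their part in it was not tested.

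*ZFP36L2*, a paralogue known from the mouse as a gene needed for oocyte maturation, was at the edge of detection in the oocytes. It stood at 0.0388, 0.0753 and 0.219 FPKM in MII, on 5, 10 and 35 fragments, and at 0.397, 0.563 and 0.0925 FPKM in 4-cell embryos, on 43, 57 and 10 fragments. In the 8-cell stage embryos it stood at 2.61, 2.02 and 1.27 FPKM, on 267, 209 and 145 fragments. Each 8-cell library was above each library of both earlier groups, which overlapped. The gene did not reach the filter of a mean of 1 FPKM over the 9 untreated libraries, so it was not among the genes tested. The ratio of mean FPKM was 17.7 for the 8-cell stage against MII and 5.6 against 4-cell embryos, with an exact two-sided permutation p of 0.1 for each, the smallest that 3 against 3 libraries can give. Fitted by limma without the filter, its log2 fold changes were 1.39 ± 0.214 (SE, adjusted p = 0.0031) and 1.12 ± 0.214 (adjusted p = 0.0322), both past the rule. In 4-cell embryos against MII the difference was 0.27 ± 0.214 (adjusted p = 0.531). With NC siRNA *ZFP36L2* stood at 3.97 and 3.07 FPKM and with *YTHDF2* siRNA at 1.90 and 2.04 FPKM, a log2 fold change of -0.60 ± 0.417 (adjusted p = 0.347), with no overlap and no call.

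*PUM2*, a Pumilio protein that represses its targets in oocytes and embryos, stood at 20.7, 20.5 and 17.17 FPKM in the MII oocytes, at 45.2, 34.6 and 34.4 FPKM in 4-cell embryos and at 12.3, 30.2 and 23.3 FPKM in 8-cell embryos. As for *BTG4*, each 4-cell library was above each MII and 8-cell library, and the MII and 8-cell libraries overlapped. The log2 fold change in 4-cell embryos against MII was 0.93 ± 0.295 (SE, adjusted p = 0.0398), under 2-fold. It fell to 0.39 with the shared genes as the total (adjusted p = 0.361), to 0.52 with quantile normalization (adjusted p = 0.308) and to 0.64 with median-ratio rescaling (adjusted p = 0.254). From 4 to 8 cells it was -0.84 ± 0.295 (adjusted p = 0.115), which was past the rule without 8-cell replicate 2 (-1.11) and -0.49 (adjusted p = 0.198) without 8-cell replicate 1. Against MII the 8-cell difference was 0.08 ± 0.295 (adjusted p = 0.849). The injected libraries stood at 9.93 and 10.02 FPKM with NC siRNA and at 8.79 and 9.97 FPKM with *YTHDF2* siRNA, which overlapped (log2 fold change -0.08 ± 0.417, adjusted p = 0.911).

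*CELF1*, which binds GU-rich 3′ UTRs and, as EDEN-BP in frogs, directs deadenylation after fertilization, stood at 10.7, 11.4 and 11.96 FPKM in the MII oocytes. It stood at 6.05, 9.82 and 3.22 FPKM in 4-cell embryos and at 23.6, 4.22 and 10.0 FPKM in 8-cell embryos. The 4-cell libraries were all below the MII libraries, and the 8-cell libraries ranged more widely than any other group of this gene. No difference was called: the log2 fold change was -0.84 ± 0.52 (SE, adjusted p = 0.251) in 4-cell embryos, -0.13 ± 0.52 (adjusted p = 0.862) in 8-cell embryos and 0.71 ± 0.52 (adjusted p = 0.427) between the 4- and 8-cell stages. The first was past the rule with each of 3 rescalings (-1.37 to -1.11) and weakest without 4-cell replicate 3 (-0.50, adjusted p = 0.576). The last was past the rule without 8-cell replicate 2 (1.26) and 0.15 (adjusted p = 0.873) without 8-cell replicate 1. With NC siRNA *CELF1* stood at 10.57 and 10.76 FPKM and with *YTHDF2* siRNA at 8.62 and 6.43 FPKM, without overlap (-0.46 ± 0.422, adjusted p = 0.476).

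Over the 7 genes, 1 of the 6 tested was called in 4-cell embryos against MII, *ZFP36L1*, beside 22.8% of all 9090 genes tested (6.06% decreased, 16.7% increased), and it was called by the adjusted p as well, beside 20.5%. In 8-cell embryos 1 of 6 was called, *TOB1*, beside 28.0% of all genes (19.8% increased, 8.14% decreased), and 0 by the adjusted p, beside 26.1%. Between the 4- and 8-cell stages limma called 0 of 6, beside 8.83% of all genes (4.55% increased, 4.28% decreased, and 5.46% by the adjusted p), and 3 of the 6 had an unadjusted p under 0.05, namely *ZFP36L1*, *BTG4* and *PUM2*, beside 24.3% of all genes; limma voom on the fragments called 0 as well. In the knockdown 1 of 7 was called, *ZFP36L1*, beside 24.8% of the 11004 genes tested (9.48% increased, 15.3% decreased), and 1 by the adjusted p, beside 7.98%. The median log2 fold change of the tested members was -0.23, -0.02, 0.72 and -0.43 in these comparisons, against 0.29, 0.37, 0.07 and 0.0054 for all genes. These medians over few genes moved with single libraries. The first ranged from -0.46, with 4-cell replicate 2 left out, to -0.070, with 4-cell replicate 3 left out, and was -0.70 to -0.48 with the 3 rescalings. The second was -0.51 to -0.36 with the rescalings, and 0.13 or 0.10 without 8-cell replicate 2 or MII replicate 1. The third was 0.22 without 8-cell replicate 1, and the last -0.089 without NC replicate 1 and -0.16 without *YTHDF2* siRNA replicate 2. The filter turned signs as well. With a mean of at least 5 FPKM, which leaves 4 members, the first was 0.040 and the third -0.026, against 0.43 and -0.0046 for all genes. Without a filter the first and second were 0.27 and 0.083 over 7 genes, against 0.023 and 0.095 for all genes. The stage comparisons share libraries, so these values are not independent.

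**Figure D2:**
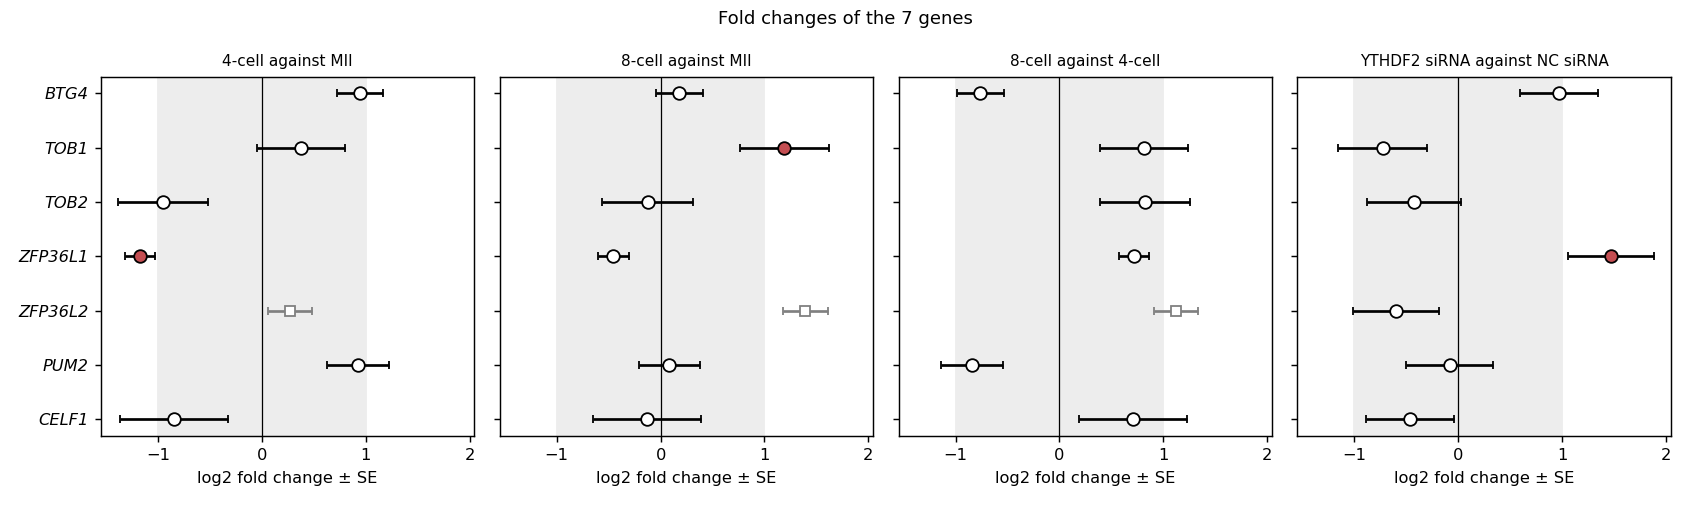
Log2 fold changes of the 7 genes in the 4 comparisons, with bars for the SE of limma, filled points for genes past the rule of the study and a grey band for changes under 2-fold. *ZFP36L1* in 4-cell embryos (-1.17) and with *YTHDF2* siRNA (1.47) and *TOB1* in 8-cell embryos (1.19) are the 3 filled points, and the grey squares give *ZFP36L2* fitted without the filter.

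The ratio of 2 genes within a library does not depend on how the library was scaled. In all, 20 differences of log2 ratios were tested by exact two-sided permutation, where p cannot go below 0.1 for the stages and 0.333 for the siRNA groups, and the lowest adjusted p-values obtained were 0.25 and 0.444 (Benjamini-Hochberg). No ratio can therefore reach significance by this test, and the following are given by size and overlap. *TOB1/TOB2* was 0.339, 0.76 and 0.458 in the MII oocytes, 1.55, 1.23 and 2.73 in 4-cell embryos and 1.60, 1.64 and 1.46 in 8-cell embryos. *TOB2* was thus the higher of the pair in each MII library and *TOB1* in each embryo library, with log2 differences from MII of 1.82 and 1.67 (exact p = 0.1, adjusted p = 0.25 for each). In the injected libraries the ratio was again below 1, at 0.548 and 0.719 with NC siRNA and 0.445 and 0.563 with *YTHDF2* siRNA.

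*ZFP36L1/ZFP36L2* had geometric means of 996 in the MII oocytes, 137 in 4-cell and 33.1 in 8-cell embryos, and the MII ratios rest on the 5 to 35 fragments of *ZFP36L2*. The 8-cell ratios of 23.0, 32.3 and 49.0 were below all earlier ones, by 4.91 on the log2 scale against MII and by 2.04 against 4-cell embryos (exact p = 0.1, adjusted p = 0.25 for each), the latter -1.25 without 4-cell replicate 3. With NC siRNA the ratio was 3.28 and 3.17 and with *YTHDF2* siRNA 16.2 and 17.3, a log2 difference of 2.38 (exact p = 0.333, adjusted p = 0.444). Both groups were narrow, and the knockdown ratios lay far above the controls.

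*BTG4/TOB1* had geometric means of 1800.0, 2410.0 and 726 in the MII, 4-cell and 8-cell groups and of 59.4 and 198 with NC and *YTHDF2* siRNA. The 8-cell ratios of 232, 1150 and 1430 were below each 4-cell ratio (log2 difference -1.73, exact p = 0.1, adjusted p = 0.25), and without 8-cell replicate 1 the difference was -0.91. The knockdown ratios were above both NC ratios (1.74, exact p = 0.333, adjusted p = 0.444), by 1.14 without *YTHDF2* siRNA replicate 2. *BTG4/TOB2* was higher in 4-cell embryos than in MII in each library (log2 difference 2.25, exact p = 0.1, adjusted p = 0.25). *CELF1/CELF2* was lower in each 4- and 8-cell library than in MII (-1.35 and -1.47, exact p = 0.1, adjusted p = 0.25 for each, the latter -0.86 without 8-cell replicate 2) and lower with *YTHDF2* than with NC siRNA (-1.63, exact p = 0.333, adjusted p = 0.444).

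**Figure D3:**
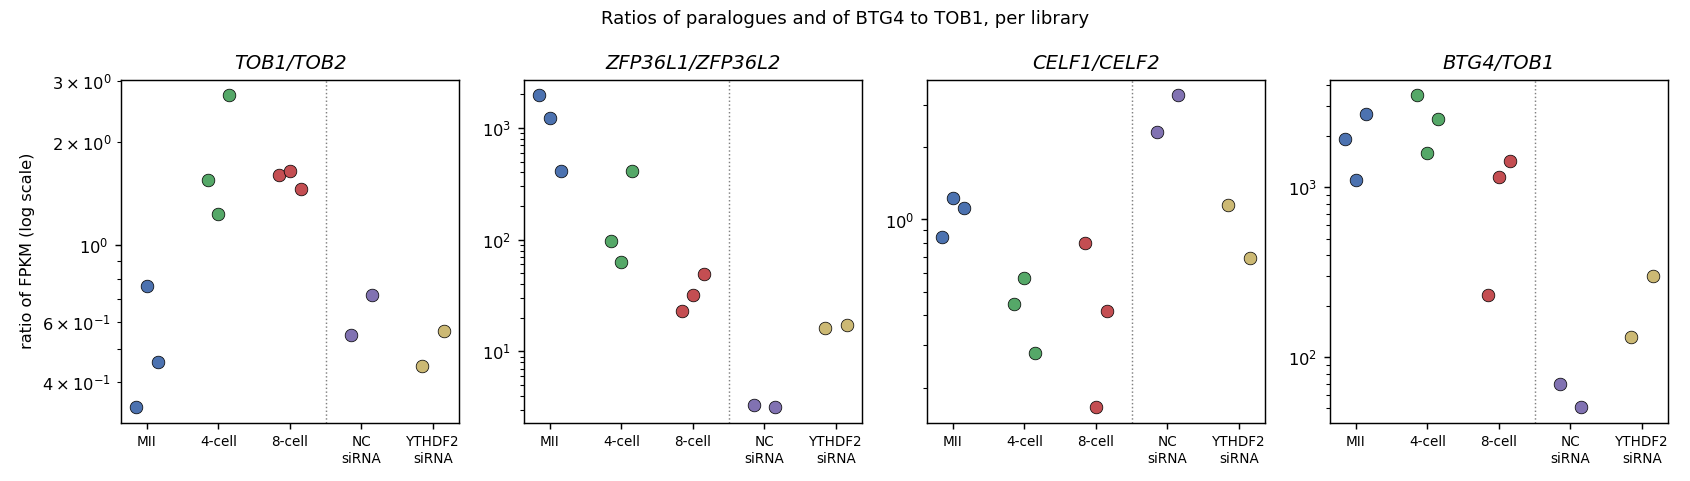
Ratios of FPKM within each library, on log axes that differ between panels, with 1 point a library and a dotted line between untreated and injected libraries. *TOB1/TOB2* lies below 1 in all 3 MII libraries (0.339 to 0.76) and above 1 in all 6 untreated embryo libraries (1.23 to 2.73), and *ZFP36L1/ZFP36L2* lies at 3.17 and 3.28 with NC siRNA against 16.2 and 17.3 with *YTHDF2* siRNA.

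The untreated and the NC siRNA libraries carry the same stage label, 8-cell, but their tables were normalized separately, so the values are set side by side with no p. *BTG4* had a mean of 4837 FPKM in the untreated and 1454 FPKM in the NC embryos, *ZFP36L1* of 62.4 and 11.4 FPKM, and *PUM2* of 21.9 and 9.98 FPKM. *TOB1* had 7.76 and 23.8 FPKM, *TOB2* 4.91 and 38.8 FPKM and *ZFP36L2* 1.96 and 3.52 FPKM. *CELF1* had means of 12.6 and 10.7 FPKM, but its untreated libraries ranged from 4.22 to 23.6 FPKM, on both sides of the NC values of 10.57 and 10.76 FPKM. By FPKM *BTG4*, *ZFP36L1* and *PUM2* were thus lower, and *TOB1*, *TOB2* and *ZFP36L2* higher, in each NC library than in each untreated 8-cell library. The summed FPKM was 385750 to 415090 in the untreated 8-cell and 574236 and 622729 in the NC libraries. By percentile among the shared genes of a library *ZFP36L2* overlapped, at 55.39 to 61.33 untreated against 61.78 and 61.32 with NC siRNA. *BTG4*, *ZFP36L1*, *PUM2*, *TOB1* and *TOB2* kept their order. The share of all genes without such an overlap was not counted. The genome activation markers summed to 2900 and 3080 FPKM in the NC embryos against 315 to 1090 FPKM in the untreated ones, with 2800 and 3140 FPKM in the knockdown, and *YTHDF2* stood at 111.54 and 158.61 FPKM against 10.8 to 16.7 FPKM. How far the embryos of the series differ in age or culture was not tested.

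Relatives of the adaptors were read from a list of 23 genes, of the BTG, ZFP36, CELF, NANOS, SAMD4, Roquin (RC3H), TNRC6 and CPEB families, of which 22 were listed and 14 were tested at the stages and 15 in the knockdown. In 4-cell embryos 2 of 14 were increased and 1 decreased, beside 16.7% and 6.06% of all genes. *NANOS1*, a partner of Pumilio proteins, stood at 2.60, 6.41 and 1.78 FPKM in MII and at 31.9, 21.2 and 21.5 FPKM in 4-cell embryos (log2 fold change 2.60, adjusted p = 0.00123). *BTG2*, a CNOT7-binding relative of *BTG4*, stood at 10.2, 5.27 and 3.47 FPKM and at 33.7, 40.4 and 23.3 FPKM (2.26, adjusted p = 0.00155). *ZFP36*, the founding gene of the tristetraprolin family, was decreased from a mean of 3.44 to 0.886 FPKM (-1.22, adjusted p = 0.0241), the same direction as *ZFP36L1*. The number decreased was 3 with median-ratio rescaling and with shared totals, beside 897 and 1264 of all 9090 genes, against 551 as reported. It was 2 with a pseudocount of 0.1 and with limma voom, beside 662 and 671 of all genes. It was also 2 in a fit of the 2 stages alone (630 of 8705 genes) and without MII replicate 1 (483 of 9174).

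In 8-cell embryos against MII 4 of 14 relatives were increased and 1 decreased, beside 19.8% and 8.14% of all genes. The increases were those of *NANOS1* (log2 fold change 3.07, adjusted p = 0.000365), *CELF2* (1.21, adjusted p = 0.00177), *RC3H1* (1.20, adjusted p = 0.00592) and *BTG2* (1.51, adjusted p = 0.00847), and the decrease was again that of *ZFP36* (-1.02, adjusted p = 0.041). The 8-cell libraries of *ZFP36*, at 2.61, 0.70 and 0.616 FPKM, overlapped those of MII, at 2.58, 3.23 and 4.50 FPKM, and its 8-cell call was lost without MII replicate 3 (-0.86), 8-cell replicate 2 (-0.86) or 8-cell replicate 3 (-0.82). Under each of 3 rescalings the calls of *NANOS1*, *BTG2* and *ZFP36* held at both stages and those of *CELF2* and *RC3H1* were lost, and that of *RC3H1* was also lost without 8-cell replicate 2 (0.99). Between the 4- and 8-cell stages limma called 0 of the 14, beside 8.83% of all genes, while 4 had an unadjusted p under 0.05, *CELF2*, *RC3H1*, *CPEB2* and *BTG1*, beside 24.3%. With limma voom on the fragments 1 was called, beside 11.4%, without 4-cell replicate 2 there were 2, beside 11.3%, and without 8-cell replicate 2 there was 1, beside 14.2%.

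In the knockdown 1 of 15 relatives was increased and 3 were decreased, beside 9.48% and 15.3% of all genes. *BTG3* stood at 237.62 and 233.96 FPKM with NC siRNA and at 51.67 and 27.9 FPKM with *YTHDF2* siRNA (log2 fold change -2.60, adjusted p = 0.00416), while its untreated range was 0.846 to 2.33 FPKM. *BTG1*, close to *BTG2* in sequence, likewise stood at 240.06 and 216.61 FPKM in the NC embryos against 1.19 to 4.03 FPKM in the untreated libraries, and at 134.83 and 126.75 FPKM in the knockdown (-0.80, adjusted p = 0.17), below both controls and not called. *RC3H2* and *RC3H1*, which encode the Roquin proteins that recruit CCR4-NOT to stem-loop elements, were decreased (-1.58, adjusted p = 0.0404, and -1.39, adjusted p = 0.0728), the latter -0.90 and not called without *YTHDF2* siRNA replicate 2. *NANOS1* was increased from 10.55 and 7.04 FPKM to 23.76 and 30.6 FPKM (1.54, adjusted p = 0.0413). The median log2 fold change of the 15 relatives was -0.18, against 0.0054 for all genes, and -0.49 or -0.37 without NC replicate 1 or 2. With a pseudocount of 0.1, 2 relatives were increased, beside 1203 of all 11004 genes.

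The deadenylases that the adaptors recruit were read from 14 genes, the CCR4-NOT subunits, *PAN2*, *PAN3* and *PARN*, all tested in each comparison. In 4-cell embryos 5 of 14 were increased and 0 decreased, beside 16.7% and 6.06% of all genes, and the 5 were *CNOT6*, *CNOT7*, *PAN3*, *CNOT1* and *PARN*, with log2 fold changes of 1.002 to 1.15 and adjusted p-values of 0.00247 to 0.0107. The median over all 14 deadenylase genes was 0.41 against 0.29 for all genes, and 0.27 without 4-cell replicate 2. Without MII replicate 3, 2 of the 14 were increased, beside 1341 of all 9179 genes. Without 4-cell replicate 2, 3 were, beside 1423 of all 9070 genes. The 5 calls were all lost under each of 3 rescalings, and with the shared genes as the total the median was -0.13. In 8-cell embryos 4 of 14 were increased, beside 19.8% of all genes, and they were *CNOT1* (1.59, adjusted p = 0.00135), *CNOT7* (1.12, adjusted p = 0.00136), *PARN* (1.29, adjusted p = 0.00248) and *PAN3* (1.03, adjusted p = 0.00733). Of these only *CNOT1* was still called after each rescaling (1.11 to 1.24). The median of the 14 genes against MII was 0.13 at this stage, against 0.37 for all genes. From 4 to 8 cells it was -0.08, against 0.07. *CNOT11* was lower in each 8-cell than MII library, at 34.6, 23.9 and 31.1 FPKM against 46.7, 47.7 and 58.0 FPKM (-0.76, adjusted p = 0.0239), under 2-fold as deposited and past the rule after each rescaling (-1.29 to -1.13).

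*CNOT7*, the deadenylase that BTG4 and the TOB proteins bind, had means of 141 ± 11.0 FPKM (SD, *n* = 3) in MII, 293 ± 46.0 FPKM in 4-cell embryos and 310 ± 52.9 FPKM in 8-cell embryos, where *BTG4* was lower again. Its paralogue *CNOT8* had means of 26.7 ± 4.40, 26.9 ± 4.89 and 28.5 ± 7.12 FPKM. In the knockdown 1 of 14 deadenylase genes was increased, beside 9.48% of all genes, namely *CNOT10*, from 33.76 and 19.88 FPKM with NC siRNA to 84.21 and 68.77 FPKM (log2 fold change 1.52, adjusted p = 0.0413). *CNOT7* stood at 111.54 and 105.92 FPKM with NC siRNA and at 113.58 and 194.97 FPKM with *YTHDF2* siRNA, and *CNOT1*, the scaffold of the complex, at 32.76 and 31.77 against 28.8 and 18.23 FPKM. The median log2 fold change of the 14 genes was 0.44, against 0.0054 for all genes. Of the 14, 11 were above 0, beside 50.2% of all genes. Without *YTHDF2* siRNA replicate 1 the median was 0.35, against -0.092 for all genes, and the number called moved as well. Without replicate 2 it was 0.27, against 0.038. Each of these fits leaves 1 library in that group. The oocyte and the cumulus and granulosa marker sums given for *BTG4* were higher in the knockdown libraries, and their part in these values was not tested.

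**Figure D4:**
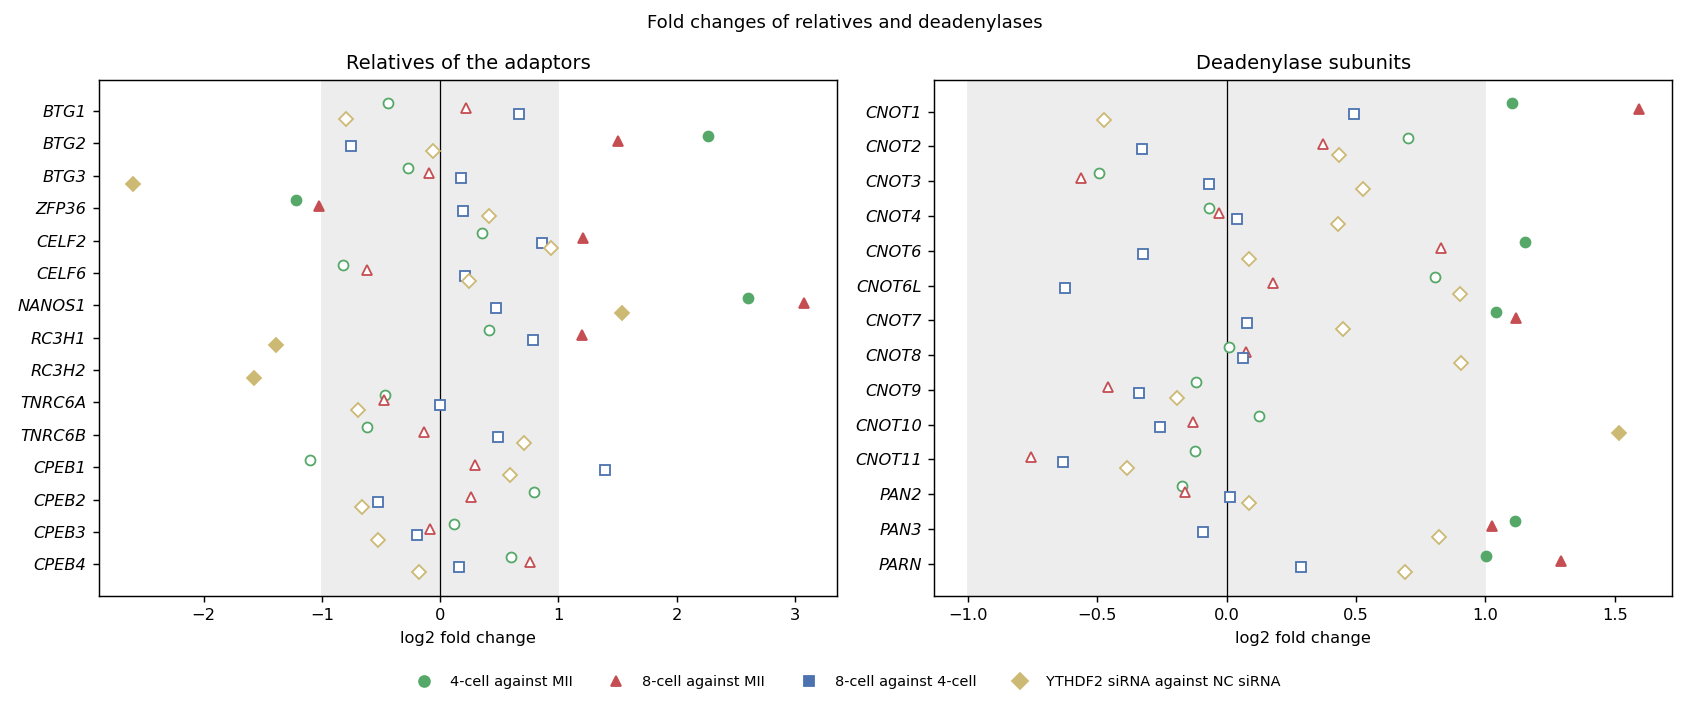
Log2 fold changes of the tested relatives of the adaptors (left) and of the deadenylase genes (right), with a symbol for each comparison, filled where the gene was past the rule of the study, and a grey band for changes under 2-fold. *NANOS1* and *BTG2* stand furthest to the right among the relatives (3.07 at the 8-cell and 2.26 in 4-cell embryos) and *BTG3* in the knockdown furthest to the left (-2.60). The filled deadenylase points in 4-cell embryos are lost after rescaling.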

How the data were processed

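Per the labels, Smart-seq2 libraries were sequenced, and HISAT2 and HTSeq are named in the processing notes of the submitters. The study aligned reads to the goat assembly ARS1, kept uniquely mapped reads, counted them per transcript without a stated strand setting, and the authors normalized each library to FPKM, the unit of all deposited values. All columns of values were used, and repeated names were dropped. Gene names were matched to a RefSeq table of a later assembly (ARS1.2), which holds a symbol for all 7 genes. Coordinates were not used.

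Testing was done in limma 3.58.1 (R 4.3.3, lmFit and eBayes with trend) on log2(FPKM + 1), for genes whose mean reached 1 FPKM in the fitted libraries, the 9 untreated libraries in 1 fit and the 4 injected in another, since their tables were normalized separately. Fold changes are on this scale and understate changes of low genes. The study used DESeq2 on counts, which are not among the deposited values. For the untreated libraries limma voom on the recovered fragments was run as an alternative. For the injected libraries no depth could be recovered, so no fit on fragments was run. *ZFP36L2* did not pass the filter in the untreated fit. Values of 17917 of 17918 shared genes above 0 came out as whole fragments, which gave the depth. Ratios within a library were compared by exact permutation with Python 3.11.15, numpy 2.4.6 and pandas 2.3.3. The script was checked on simulated data with known changes.

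Named are the 7 genes, *YTHDF2*, and list genes past the rule, at most 5 a list and comparison by lowest p. *BTG1*, *CPEB2*, *CNOT8* and *CNOT11* were named after their values were seen, as were the *CNOT1* and *CNOT7* values in the knockdown. Some results of the chosen lists are not reported here. The 7 genes, the lists, tests and alternatives were chosen with earlier results of these data known.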

Additional observations from a re-analysis of the deposited data

How the results depend on the processing

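Of the 7 genes, *ZFP36L1* kept its direction and call in all alternatives run at the 4-cell stage against MII and in the knockdown. The number of members called moved elsewhere. At the 4-cell stage it was 1 as reported, 2 with a pseudocount of 0.1 (beside 29.0% of all genes) and with limma voom (29.1%), 3 with median-ratio rescaling (20.1%), with quantile normalization (19.6%) and with the fragments on shared genes as the total (20.8%), and 1 to 3 with 1 library left out (20.3 to 24.1%). At the 8-cell stage against MII it was 1 as reported, 2 without the filter (14.7%) and in a fit of only the 2 stages (27.2%), where *ZFP36L2* passed the filter only through the 8-cell group, so that its call there carries no weight, 0 with a filter of 5 FPKM (33.6%), which leaves 4 members, 0 with median-ratio rescaling, quantile normalization, shared totals (25.3 to 25.8%) or the adjusted p (26.1%), and 0 to 1 with 1 library left out (26.3 to 30.8%). Between the 4- and 8-cell stages it was 0 as reported, 1 without the filter (4.62%) and, for the same gene and with the same limit, in the fit of 2 stages (8.69%), and 0 to 4 with 1 library left out, the 4 without 8-cell replicate 2 (14.2%). In the knockdown it was 1 to 2 with 1 library left out (16.8 to 29.9%). Signs turned only for differences that were not called. *BTG4* became 0 at all 3 stage comparisons with quantile normalization, which fixes the value at its constant rank, and -0.20 and -0.36 at the 8-cell stage against MII with median-ratio rescaling and shared totals. *TOB1* at the 4-cell stage became -0.028 with shared totals. At the 8-cell stage against MII, *PUM2* became -0.28, -0.34 and -0.43 with the 3 rescalings. With 1 library left out, the same comparison gave -0.18 to 0.43 for *PUM2*, below 0 without MII replicate 3 or 8-cell replicate 2 or 3, -0.60 to 0.13 for *TOB2*, above 0 without MII replicate 1 or 8-cell replicate 2 or 3, and -0.70 to 0.42 for *CELF1*, above 0 without 8-cell replicate 2. In the knockdown *TOB2* gave -0.90 to 0.039, above 0 without *YTHDF2* siRNA replicate 2. Of the log2 ratios, *BTG4/TOB2* at the 8-cell stage against MII gave -0.073 to 1.17, below 0 without 8-cell replicate 3. Between the 4- and 8-cell stages *TOB1/TOB2* gave -0.40 to 0.18, above 0 without 4-cell replicate 3, and *CELF1/CELF2* -0.65 to 0.49, above 0 without 8-cell or 4-cell replicate 2 (0.49 and 0.12). The causes were not tested, except where the construction is named. Of 395 values of single members under alternatives, 349 kept direction and call, 6 lost and 23 gained a call, 14 turned sign and 3 became 0.

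Replicate numbers were shared between groups, but the deviations of same-numbered libraries correlated at -0.508 to 0.201 between the stages and at -0.152 in the injected embryos, so the numbers were not taken as pairs. With a replicate block the members called were 1, 1 and 0 at the stages and 1 in the knockdown, as without it, and all genes called in the knockdown were 2688 against 2728. A crossed replicate block, chosen after seeing the data, gave 2810, with 1 member called. The unknown depth of the injected libraries gives no counting error for them, and 2 libraries a group limit the knockdown to large differences.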

Other observations

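Other RNA-binding proteins of AU-rich and 3′ end elements were read from a list of 11 genes, of which 9 were tested at the stages and 10 in the knockdown. At the 4-cell stage against MII *ELAVL2* (log2 fold change 1.19, adjusted p = 0.0012 by limma), *HNRNPD* (1.47, adjusted p = 0.00141) and *MSI1* (1.01, adjusted p = 0.0745) were increased and *KHSRP* was decreased, which is 3 and 1 of 9 beside 16.7% and 6.06% of all genes. *KHSRP*, a decay-promoting AU-rich element binder, stood at 18.6, 12.01 and 5.93 FPKM in MII oocytes and at 1.63, 3.19 and 1.36 FPKM at the 4-cell stage (-2.03, adjusted p = 0.0215), and it was also decreased at the 8-cell stage (-1.94, adjusted p = 0.0216), where it overlapped MII through 8-cell replicate 1. At the 8-cell stage 1 of 9 was increased and 1 decreased against MII, beside 19.8% and 8.14% of all genes, and 1 of 9 was increased against 4-cell embryos, beside 4.55%. *HNRNPAB* was increased at the 8-cell stage against MII oocytes (1.58, adjusted p = 0.00263) and, against 4-cell embryos, by 1.24 (adjusted p = 0.033), a call lost without 8-cell replicate 2 (0.98, adjusted p = 0.0724). In the knockdown 1 of 10 was called, beside 15.3% of all genes decreased: *TIA1* was decreased from 4.70 and 1.61 FPKM to 0.35 and 0 FPKM (-1.73, adjusted p = 0.0345). *TIA1* passed the filter of 1 FPKM only through the NC group, so this test carries no weight, and without NC replicate 1 the gene was not tested. The calls of *KHSRP* and *HNRNPAB* held under each of 3 rescalings, those of *ELAVL2* and *MSI1* under none of them, and that of *HNRNPD* was lost with shared totals (0.92).

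The genes whose levels were most like a member were searched among 3650 genes that averaged at least 10 FPKM, by Pearson r of log2(FPKM + 1) over the 9 untreated libraries. They are given with no p, since the libraries share stage, depth and the 8-cell library that stands apart. For *BTG4* they were *HOOK1* (0.978), *NEMF* (0.963) and *FSBP* (0.963), for *TOB1* *DEDD* (0.969) and *RNF4* (0.961), and for *TOB2* *VCP* (0.965), *RNPS1* (0.965) and *GTPBP4* (0.951). For *ZFP36L1* they were *POLR3K* (0.927), *SLC5A1* (0.885) and *C20H5orf47* (0.881), and for *ZFP36L2* *RRM2* (0.981), *VPS25* (0.97) and *CNRIP1* (0.969). For *PUM2* they were *C25H16orf72* (0.979), *RHOU* (0.974) and *ATAD5* (0.972), and for *CELF1* *KLHL18* (0.981), *TRIP13* (0.974) and *TMEM150A* (0.974). The best match of *ZFP36L1* was the lowest of the 7.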
